A study of Mus musculus with 4 samples.

Results

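The Wnt/beta-catenin feedback targets examined here were the genes Axin2, Lgr4, Lgr5, Tbx3, Rnf43, Znrf3, Nkd1, Sp5, Lef1 and Tcf7, taken from the deposited gene table by symbol. All 10 were listed among its 31828 genes, and 4 of them reached the mean of 1 TPM, an abundance corrected for transcript length and scaled to the same total in each library, that was required for testing. RNA was sequenced from AML12, an immortalized mouse hepatocyte line, grown either as a layer in a dish (2D) or inside Matrigel, a basement membrane extract (3D), with 2 libraries per culture. All 4 libraries came from cells in a medium with serum, insulin and dexamethasone, and all were held at the G1/S boundary with hydroxyurea at 1 mM, which starves replication of nucleotides. Exposure to the drug lasted 24 h in the 2D cells but 36 h in the 3D cells, so culture and length of treatment cannot be told apart in any comparison. The line was the only cell source, and the labels do not say whether replicate libraries came from separate cultures, so that p-values measure the spread between these libraries, which may be technical.

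In the canonical Wnt pathway, a Wnt ligand binds a Frizzled receptor with Lrp5 or Lrp6, the complex that destroys beta-catenin is inhibited, and beta-catenin activates genes together with TCF/LEF factors in the nucleus. Several of those genes feed back on the pathway. Rnf43 and Znrf3 remove Frizzled receptors, R-spondins bound to Lgr receptors block that removal, Axin2 and Nkd1 restrain the signal inside the cell, and Tcf7 and Lef1 are themselves TCF/LEF factors. In liver, this pathway is known for the pericentral zone, where hepatocytes around the central vein express Axin2, Lgr5, Tbx3 and Rnf43 beside the glutamine synthetase gene Glul.

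The 10 genes fell into 2 ranges of expression. Lgr4, Znrf3, Tcf7 and Rnf43 had mean levels of 15.3, 9.08, 6.29 and 4.52 TPM over the 4 libraries, and all 4 were higher in 3D-cultured cells. In bulk RNA, more cells with a transcript and more transcript per cell cannot be told apart. Lgr5, Axin2, Nkd1, Lef1, Sp5 and Tbx3 did not exceed 0.252 TPM in any library. A mean TPM no higher than the highest of these 6 was found for 11565 genes, 36.3% of the table. A mean under 1 TPM was found for 55.6% of the table. Summed over all 10 genes, the level was 25.2 and 24.2 TPM in the 2D libraries and 47.4 and 45.5 TPM in the 3D libraries, and the 6 low genes contributed 0.134 and 0.279 TPM to it in 2D and 0.639 and 0.467 TPM in 3D. The summed level thus came almost wholly from 4 genes.

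With limma on log2(TPM + 1), 4 of the 4 tested members had an adjusted p-value (Benjamini-Hochberg false discovery rate, FDR) below 0.05, all with higher values in 3D. Over all 14116 tested genes, 50.5% passed this threshold and 23.4% passed it with a higher value in 3D. Among the 2855 tested genes with a mean level in the range of the 4 members, 23.8% were higher in 3D. The median log2 fold change was 0.97 over the 4 members and -0.04 over all tested genes. The count covers the members that passed the filter on low values, not all 10, and 4 genes are too few to set their share against that of the table. For a single gene, exact permutation of 4 libraries reaches 0.333 at best, which left the model across all genes as the only test.

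**Figure D1:**
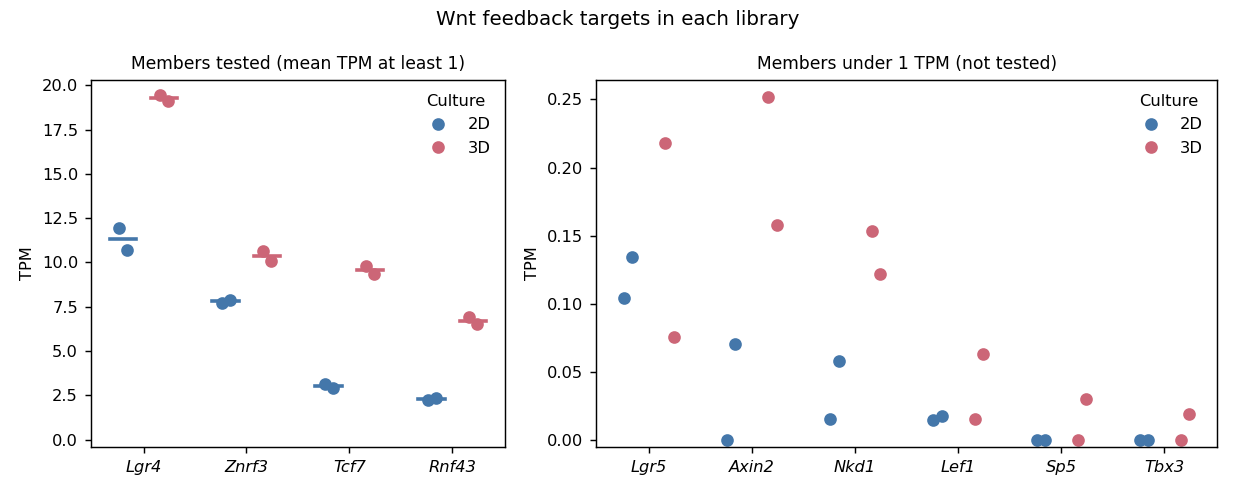
TPM of each of the 10 genes in each library, with 2D in blue and 3D in red; points are libraries, lines in the left panel are means of 2 libraries, and the panels have different vertical scales. Both 3D points lie above both 2D points for Lgr4, Znrf3, Tcf7 and Rnf43, while the other 6 genes stay at or under 0.252 TPM.

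Rnf43 and Znrf3 encode membrane ubiquitin ligases that mark Frizzled receptors for degradation. Rnf43 (ENSMUSG00000034177, a protein-coding gene at chr11:87662722-87735539 on the plus strand of GRCm38) was listed at 2.25 and 2.38 TPM in the 2D libraries and at 6.92 and 6.51 TPM in the 3D libraries. The groups did not overlap, and the gap between them was many times the gap within either. Its mean rose from 2.31 ± 0.0921 to 6.72 ± 0.287 TPM (SD of n = 2), which is 2.90-fold, and its log2 fold change was 1.22 (SE 0.10, limma FDR 0.00121). A rise by more than 1 on the log2 scale with an adjusted p-value below 0.05 was found for 4.37% of tested genes. Rnf43 and Tcf7, 2 of the 4 tested members, were among them. With 4 genes, the members are too few to set against that share. The gene 1110028F11Rik overlaps Rnf43 on the same strand, and reads from shared stretches could be assigned to either. It was listed at no more than 0.251 TPM in any library.

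Znrf3 (ENSMUSG00000041961, protein-coding, chr11:5276324-5444847, minus strand) changed less. It was listed at 7.72 and 7.89 TPM in 2D and at 10.6 and 10.1 TPM in 3D, again with no overlap. The mean went from 7.80 ± 0.117 to 10.4 ± 0.396 TPM (SD of n = 2), or 1.33-fold, with a log2 fold change of 0.37 (SE 0.08, limma FDR 0.0188). This call rested on having all 4 libraries. The limma FDR was 0.0611 without 2D replicate 1, 0.0518 without 2D replicate 2, 0.102 without 3D replicate 1 and 0.0668 without 3D replicate 2, while the log2 fold change stayed between 0.33 and 0.40.

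Because both ligases act on the same receptors, their balance was compared. Znrf3 was 3.43 and 3.31 times as abundant as Rnf43 in the 2D libraries and 1.54 and 1.55 times in the 3D libraries, on the TPM scale. Rnf43 accordingly supplied 22.6% and 23.2% of the summed ligase TPM in 2D and 39.4% and 39.3% in 3D. Znrf3 remained the more abundant of the pair in every library.

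Lgr4 and Lgr5 encode receptors for R-spondins, secreted proteins that spare Frizzled receptors from the ligases. Lgr4 (ENSMUSG00000050199, protein-coding, chr2:109917647-110014257, plus strand) was the most abundant of the 10 genes, at 11.9 and 10.7 TPM in 2D and 19.4 and 19.1 TPM in 3D. Its groups were clearly separated, with a mean of 11.3 ± 0.852 TPM in the 2D libraries and 19.3 ± 0.251 TPM in the 3D libraries (SD of n = 2), a 1.70-fold rise. The log2 fold change was 0.72 (SE 0.08, limma FDR 0.00281). Lgr5 (ENSMUSG00000020140, protein-coding, chr10:115450311-115587780, minus strand), a stem cell marker in intestine and a pericentral marker in liver, was listed at 0.104 and 0.134 TPM in 2D and at 0.218 and 0.0757 TPM in 3D. The cultures overlapped for Lgr5, and the highest and the lowest of its 4 values were the 2 libraries of 3D.

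A further member of this receptor family, Lgr6, was compared for reference. It stood at 5.54 and 5.77 TPM in 2D and 7.31 and 5.91 TPM in 3D, with a log2 fold change of 0.19 that did not pass the threshold (limma FDR 0.261). Lgr4 made up 67.9% and 64.5% of the summed TPM of the 3 receptors in 2D and 72.1% and 76.1% in 3D. The shares of the cultures did not overlap, replicate libraries of a culture differed by several percentage points, and the difference was not tested.

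Tcf7 and Lef1 encode DNA-binding partners of beta-catenin that are best known from T cells. Tcf7 (ENSMUSG00000000782, protein-coding, chr11:52252371-52283014, minus strand) was listed at 3.15 and 2.89 TPM in 2D and at 9.77 and 9.33 TPM in 3D. It had the largest fold change of the 4 tested members, from 3.02 ± 0.183 to 9.55 ± 0.311 TPM (SD of n = 2), which is 3.16-fold. Its log2 fold change was 1.39 (SE 0.09, limma FDR 0.000773), and 2.17% of tested genes had a higher one. The gene Gm26551 overlaps Tcf7 on the same strand, and reads from shared stretches could be assigned to either, but it was listed at no more than 0.0777 TPM in any library. Lef1 (ENSMUSG00000027985, protein-coding, chr3:131110471-131224356, plus strand) was listed at 0.0147 and 0.0172 TPM in 2D and at 0.0151 and 0.0632 TPM in 3D. One of the 3D libraries lay within the range of 2D.

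Of the other TCF/LEF genes, Tcf7l2 had 2.44 and 2.25 TPM in 2D and 2.84 and 2.31 TPM in 3D (log2 fold change 0.09, limma FDR 0.588), and Tcf7l1 did not exceed 0.476 TPM. The summed level of the 4 family members was 5.80 and 5.42 TPM in 2D and 13.1 and 12.2 TPM in 3D. Tcf7 supplied 54.3% and 53.4% of that sum in 2D and 74.6% and 76.7% in 3D, and Tcf7l2 supplied 42.1% and 41.6% in 2D and 21.6% and 19.0% in 3D. Tcf7 was thus the leading family member in every library, and its lead was wider in 3D.

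**Figure D2:**
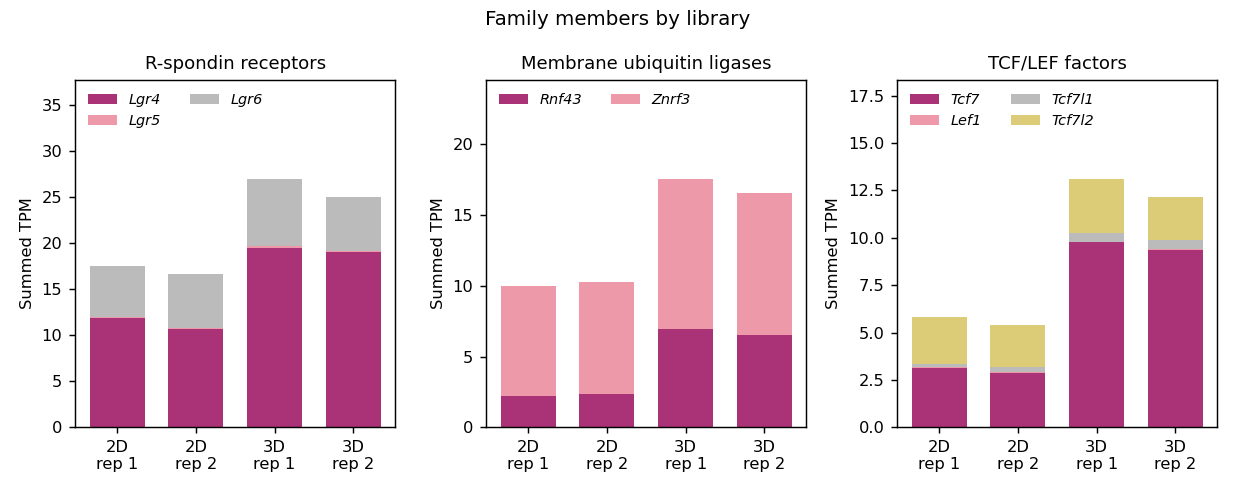
Stacked TPM of 3 small families in each library, with R-spondin receptors, membrane ubiquitin ligases and TCF/LEF factors from left to right; each bar is 1 library and has no error bar. Lgr5 and Lef1 are too low to be seen clearly, and the bars of the 3D libraries are taller in each panel.

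Axin2 and Nkd1 act inside the cell. Axin2 (ENSMUSG00000000142, protein-coding, chr11:108920349-108950783, plus strand), a scaffold of the complex that degrades beta-catenin and a standard readout of the pathway, was listed at 0 and 0.0703 TPM in 2D and at 0.252 and 0.158 TPM in 3D. Nkd1 (ENSMUSG00000031661, protein-coding, chr8:88521354-88594884, plus strand), which binds Dishevelled, was listed at 0.0151 and 0.0576 TPM in 2D and at 0.154 and 0.122 TPM in 3D. For both genes, both 3D values lay above both 2D values. The same was true of 15.9% of the 17712 genes with a mean under 1 TPM. Without the filter on low values the limma FDR was 0.167 for Axin2 and 0.213 for Nkd1. No fold is given for genes at this level. The related scaffold Axin1 was listed at 33.3 and 37.5 TPM in 2D and at 49.3 and 45.1 TPM in 3D, a rise of 0.41 on the log2 scale (limma FDR 0.0164), and Axin2 made up at most 0.508% of the summed TPM of the pair.

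Sp5 and Tbx3 encode transcription factors that beta-catenin activates in several tissues. Sp5 (ENSMUSG00000075304, protein-coding, chr2:70474923-70477729, plus strand) was listed at 0 in 3 libraries and at 0.0296 TPM in 3D replicate 2. Tbx3 (ENSMUSG00000018604, protein-coding, chr5:119670669-119684724, plus strand) was listed at 0 in the same 3 libraries and at 0.0192 TPM in 3D replicate 2. TPM keep no sequencing depth, so no detection limit can be given for these values, and a value of 0 says only that the gene was listed at 0. Without the filter on low values, none of the 6 low genes passed the threshold (limma FDR 0.167 to 0.839 over the 6 genes, unadjusted p 0.0536 to 0.743).

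In order of level, Lgr4 was followed by Znrf3, Tcf7 and Rnf43 in both cultures. Neighbours in this order did not overlap between libraries of the same culture, although Tcf7 came close to Znrf3 in 3D, with 9.77 TPM as its highest value against 10.1 TPM as the lowest of Znrf3. In 2D the highest value of Tcf7 was 3.15 TPM and the lowest of Znrf3 was 7.72 TPM. Among the low genes, Lgr5 lay above Axin2 and Nkd1 in the 2D libraries, where those 2 overlapped. In 3D, Axin2 lay just above Nkd1 (lowest value 0.158 TPM against a highest of 0.154 TPM) and Lgr5 overlapped both. The listed order of these genes was thus not the same in the cultures, but values near 0 TPM have no stated precision and the order was not tested.

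The sequence before the annotated start was inspected for the core recognized by TCF/LEF factors, searched as CTTTGA on either strand in RefSeq windows of 300 bases (GRCm38.p6, 250 before to 50 after each start). Windows were found for 7 of the 10 genes, 12 in all, since some genes have several starts. The core was present in 2 of the 12 windows (16.7%), against 16.0% of all 32851 windows, so the share for these genes lay near that of the whole set. Of these windows 3 are shown, without the bases after the start. Lgr4 is the most abundant member, Axin2 is the standard readout of the pathway and was listed near 0, and Sp5 is a member whose window has the core, in capitals. They are chr2:109917397-109917646 for Lgr4, chr11:108920099-108920348 for Axin2 and chr2:70474673-70474922 for Sp5, all on the plus strand and read 5′ to 3′.
Lgr4: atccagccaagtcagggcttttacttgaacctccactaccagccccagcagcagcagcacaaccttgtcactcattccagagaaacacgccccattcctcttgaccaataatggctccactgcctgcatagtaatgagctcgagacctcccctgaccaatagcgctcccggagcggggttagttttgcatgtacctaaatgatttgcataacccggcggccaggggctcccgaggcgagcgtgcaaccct
Axin2: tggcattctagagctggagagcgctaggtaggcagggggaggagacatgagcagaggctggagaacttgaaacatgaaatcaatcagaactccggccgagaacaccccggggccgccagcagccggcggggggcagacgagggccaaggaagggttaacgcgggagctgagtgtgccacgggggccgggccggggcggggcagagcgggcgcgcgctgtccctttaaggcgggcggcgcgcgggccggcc
Sp5: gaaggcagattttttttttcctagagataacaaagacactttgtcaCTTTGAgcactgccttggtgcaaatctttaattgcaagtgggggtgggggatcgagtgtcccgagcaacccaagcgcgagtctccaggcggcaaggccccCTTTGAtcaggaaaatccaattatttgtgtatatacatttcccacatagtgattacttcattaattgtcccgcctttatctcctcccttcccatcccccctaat

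In the Sp5 window the core begins 204 and 104 bases before the start, and the longer form CTTTGAT, which contains the core and occurs in 3.73% of all windows, is present as well. The other window with the core belongs to an internal start of Lef1, where it lies 180 and 120 bases before that start on the opposite strand. Both genes were among those listed near 0 TPM. No match was found in the 5 windows of Lgr4, Rnf43 and Tcf7, the tested members that have a window, nor in the window of Axin2. These windows differed in base composition, with 58.3% G and C for Lgr4, 70.0% for Axin2 and 45.0% for Sp5, against a median of 52.7% over all windows. Both starts of Rnf43, the start of Nkd1, the inner starts of Lef1 and the other start of Tcf7 lie inside the gene as the table bounds it. The bases before the outer start of Tcf7 may be coding sequence of a longer form. For these reasons, these windows need not be promoters. The outer windows of Lef1 overlap and share most of their sequence. A match is a description of the letters in these windows, and sequence outside them was not searched.

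The other genes of the pathway were described by role, in 6 lists with 93 genes in the table, of which 57 were tested. Wnt5a, Fzd10, Dkk1, Sfrp2, Trabd2b and Sox17 were on these lists and were not analysed here. Over all 14116 tested genes, 3303 (23.4%) were higher and 3819 lower in 3D at the same threshold. Of the 57 tested genes of these lists, 21 had higher and 10 lower levels in 3D, and their median log2 fold change was 0.14. The 4 feedback targets that were tested lay above that median. The log2 fold changes of the pathway genes spanned from -2.40 for Wnt7a to 2.21 for Wnt3. Of these, Wnt3 passed the filter on low values only through the 3D libraries.

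**Figure D3:**
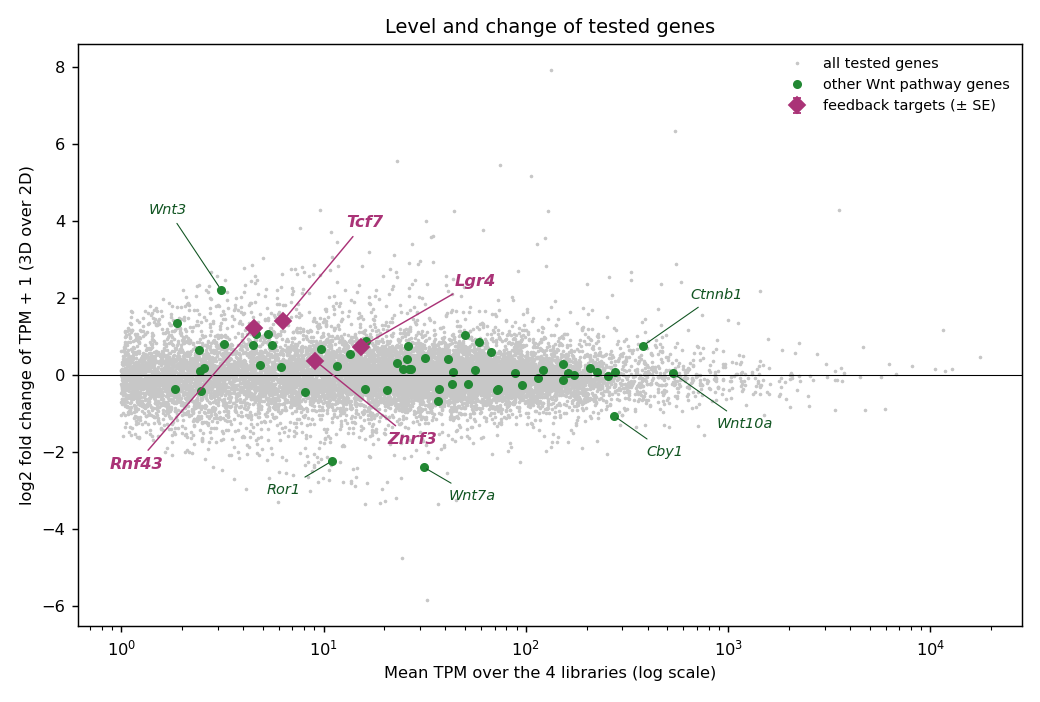
log2 fold change (3D over 2D, on log2(TPM + 1)) against mean TPM on a log axis for all 14116 tested genes in grey, other Wnt pathway genes in green and the 4 tested feedback targets as diamonds, whose SE bars are hidden by the symbols. The feedback targets sit between 4.52 and 15.3 TPM with changes of 0.37 to 1.39, whereas Wnt10a, Ctnnb1 and Cby1 lie far to the right.

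Wnt ligands were expressed unevenly, with 8 of 18 listed genes tested, 2 higher and 3 lower in 3D, and a median log2 fold change of -0.01. Wnt10a was the most abundant at 527 and 532 TPM in 2D and 535 and 548 TPM in 3D, and it did not pass the threshold (log2 fold change 0.03, limma FDR 0.473). Wnt7b was listed at 334 and 195 TPM in 2D and 249 and 246 TPM in 3D, so that the 2D libraries enclosed those of 3D (limma FDR 0.901). Wnt7a fell from 58.5 and 47.9 TPM to 9.24 and 9.21 TPM, a log2 fold change of -2.40 (SE 0.11, limma FDR 0.000404). Wnt9a and Wnt8b were lower as well, by log2 fold changes of -0.26 and -0.42 (limma FDR 0.00733 and 0.0354). Wnt3 rose from 0.386 and 0.540 TPM to 5.91 and 5.61 TPM, a log2 fold change of 2.21 (SE 0.12, limma FDR 0.000534), and Wnt4 rose by 0.40 (limma FDR 0.0196). Wnt3 passed the filter on low values only through the 3D libraries, and it counts toward the 2 higher genes and the median. The tested ligand genes moved in both directions, with Wnt4 higher and Wnt7a, Wnt9a and Wnt8b lower apart from Wnt3. Without 3D replicate 1 or 3D replicate 2, 3 and 2 ligand genes were called, against 5 with all libraries.

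The machinery for release of Wnt proteins and the R-spondins, the partners of Lgr4, had 3 of 6 genes tested and 3 higher in 3D, with a median of 0.74. Rspo3, an R-spondin, stood at 3.30 and 2.85 TPM in 2D and 7.21 and 7.88 TPM in 3D, a log2 fold change of 1.07 (SE 0.11, limma FDR 0.00224). Porcn, the acyltransferase that lipidates Wnt proteins, and Wls, which carries them to the surface, rose by 0.74 and 0.27 (limma FDR 0.0197 and 0.00996). Rspo1, Rspo2 and Rspo4 did not exceed 0.184 TPM.

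Among Wnt receptors, 9 of 16 listed genes were tested, 5 were higher and 2 lower in 3D, and the median was 0.42. The co-receptor genes Lrp5 and Lrp6 rose by 0.60 and 0.42 (limma FDR 0.00304 and 0.00399), with Lrp5 at 50.4 and 56.5 TPM in 2D and 82.2 and 80.6 TPM in 3D. Of the Frizzled genes 3 were higher, whose products are substrates of Rnf43 and Znrf3. Fzd5 rose by 0.87, Fzd4 by 0.80 and Fzd7 by 0.65 (limma FDR 0.00125, 0.00493 and 0.00907). Fzd2 fell by 0.44 (limma FDR 0.0128). Ror1, a receptor for beta-catenin-independent Wnt signals, fell from 17.8 and 19.9 TPM to 3.25 and 3.11 TPM, a log2 fold change of -2.24 (SE 0.09, limma FDR 0.000323). Ryk, with 42.7 ± 1.50 TPM in the 2D libraries against 44.8 ± 0.153 TPM in the 3D libraries (SD of n = 2), did not pass the threshold (limma FDR 0.340).

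Extracellular antagonists were nearly absent from the table's expressed range, with 13 of 15 listed genes under a mean of 1 TPM, against 55.6% of all genes. The 13 included Notum, Wif1 and Apcdd1. Of these low genes, Kremen2 and Dkk4 had the highest means and did not exceed 0.371 TPM in any library. Draxin, at 2.62 and 2.71 TPM in 2D and 6.87 and 6.35 TPM in 3D, rose by 1.05 (limma FDR 0.00177), and Kremen1 did not pass the threshold (log2 fold change 0.21, limma FDR 0.0799).

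In the list of Dishevelled proteins and the destruction complex, 20 genes were tested, with 5 higher and 1 lower in 3D and a median of 0.07. Frat1, a Gsk3-binding protein, rose by 1.35, Dvl2 by 1.04 and Dvl1 by 0.84 (limma FDR 0.00157, 0.000447 and 0.000702). Of these, Frat1 passed the filter on low values only through the 3D libraries. The tankyrase gene Tnks, whose product destabilizes Axin, fell by 0.23 (limma FDR 0.0385). The most abundant members, Tnks2, Csnk1d, Csnk1g2 and Csnk1a1, had log2 fold changes of 0.08, -0.003, 0.06 and -0.15 and none passed the threshold (limma FDR 0.157 to 0.965).

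Of beta-catenin and its nuclear partners, 15 were tested, 5 were higher and 4 lower, and the median was 0.12. Without 3D replicate 1, 5 genes of this list were called, against 9 with all libraries. Ctnnb1, the beta-catenin gene, was listed at 226 and 339 TPM in 2D and 376 and 583 TPM in 3D. The groups did not overlap, but the spread within each was wide and the log2 fold change of 0.76 (SE 0.28) did not pass the threshold (limma FDR 0.0840). In both cultures the higher value was that of replicate 2. With the replicate number as a block in the model, 10 genes of this list were called, against 9 without it. These counts are for the whole list, and the result for Ctnnb1 in the blocked fit is not given. Cby1, an antagonist of beta-catenin, fell from 371 ± 0.726 to 176 ± 0.480 TPM (SD of n = 2), a log2 fold change of -1.07 (limma FDR 0.000241). Tle2 and Tle3 rose by 0.78 and 0.76, whereas Tle4, also a corepressor of TCF factors, fell by 0.69 (limma FDR 0.00409, 0.00420 and 0.00185). Bcl9, a coactivator, rose by 0.68 (limma FDR 0.0100). The corepressor genes Ctbp1 and Ctbp2 had log2 fold changes of 0.18 and -0.39 and both passed the threshold (limma FDR 0.0216 and 0.0149). Aes, a corepressor among the 4 most abundant genes of the list, had a log2 fold change of 0.07 and did not pass it (limma FDR 0.238).

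**Figure D4:**
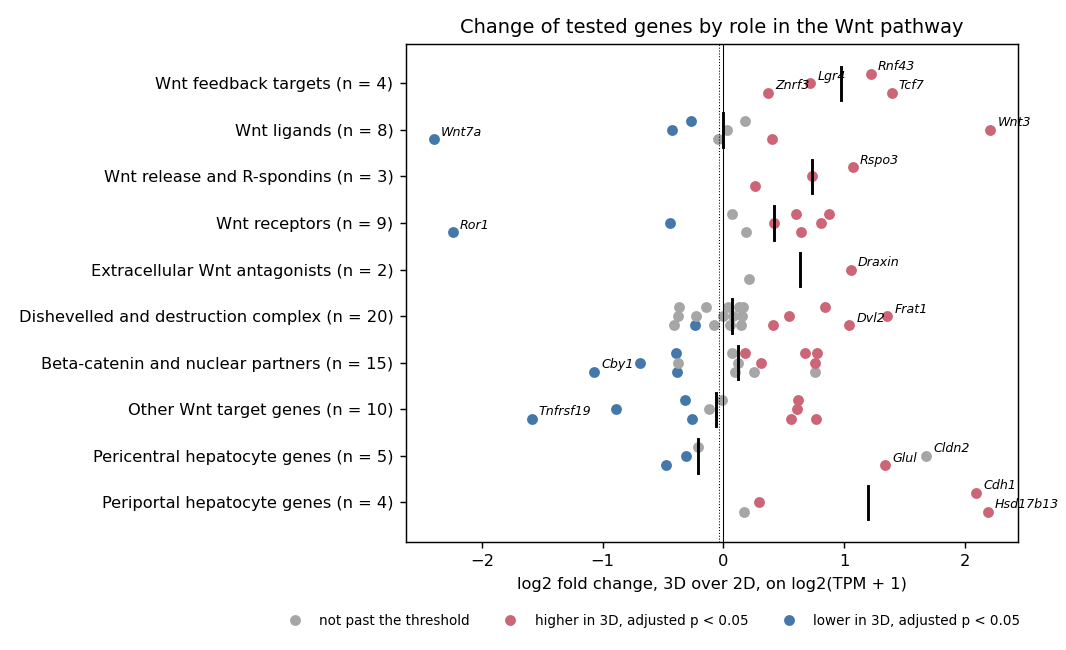
log2 fold change of each tested gene, grouped by role; red and blue points passed an adjusted p-value of 0.05 in either direction, grey points did not, black bars are list medians and the dotted line is the median of all tested genes at -0.04. The 4 feedback targets all lie to the right of 0, while ligands and nuclear partners lie on both sides.

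Other genes known as Wnt targets did not share one direction. Of 16 listed genes 10 were tested, 4 were higher and 4 lower in 3D, and the median was -0.07. Here 5 genes were called without 3D replicate 1, against 8 with all libraries. Ccnd1, which encodes cyclin D1, rose from 324 ± 8.43 to 551 ± 4.05 TPM (SD of n = 2, log2 fold change 0.77, limma FDR 0.000440), and Sox9 and Sox4 rose by 0.62 and 0.61 (limma FDR 0.00317 and 0.00236). The log2 fold change was -0.32 for Myc, -0.89 for Fosl1 and -1.59 for Tnfrsf19 (limma FDR 0.0139, 0.000996 and 0.00172). Of these, Tnfrsf19 passed the filter on low values only through the 2D libraries. Cd44 also fell, by 0.26 (limma FDR 0.00877). Jun, at 151 and 154 TPM in 2D and 152 and 151 TPM in 3D, did not pass the threshold (log2 fold change -0.01, limma FDR 0.844).

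Because Axin2, Lgr5 and Tbx3 mark the pericentral zone in liver, genes of both liver zones were examined. Of 12 pericentral genes 7 had a mean under 1 TPM, among them Cyp2e1 and Cyp1a2, as did 55.6% of all genes in the table. Of the 5 tested 1 was higher and 2 lower in 3D, with a median of -0.21. Glul rose from 102 ± 3.57 to 258 ± 3.83 TPM (SD of n = 2), a log2 fold change of 1.34 (limma FDR 0.000241). Oat, an enzyme of ornithine metabolism, and Lect2 were lower, by log2 fold changes of -0.47 and -0.31 (limma FDR 0.00215 and 0.0208). Cldn2 was listed at 42.5 and 7.25 TPM in 2D and at 229 and 15.0 TPM in 3D. The cultures overlapped and replicates lay far apart (limma FDR 0.393). In both cultures the higher value was that of replicate 1, and the 3D value was the higher within each replicate number. Of 12 periportal genes 8 had a mean under 1 TPM, among them Cps1 and Arg1, and of the 4 tested 3 were higher, with a median of 1.19. Cdh1 rose by 2.09, Hsd17b13 by 2.19 and Asl by 0.29 (limma FDR 0.000215, 0.000972 and 0.0152). Hsd17b13 was listed at 0.0481 and 0.114 TPM in 2D and at 3.42 and 4.50 TPM in 3D. It passed the filter on low values only through the 3D libraries, and it counts toward the 3 higher genes and this median. Gls2, the other tested gene, had a log2 fold change of 0.17 (limma FDR 0.266). Over all tested genes 23.4% were higher in 3D. The 5 pericentral and 4 periportal genes tested are too few to set against that share or against each other.

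Neighbouring genes were inspected to see whether members moved with their surroundings. Of the 20 nearest protein-coding or tested genes, 1 on each side of each member, 16 were tested, with 3 higher, 3 lower and 10 not past the threshold. Beside Lgr4, Lin7c lies 16.6 kb away and did not pass the threshold (log2 fold change 0.13, limma FDR 0.0989), and Ccdc34, 3.6 kb away on the other side, fell by 0.59 (limma FDR 0.000995). Beside Tcf7, Skp1a and Vdac1 had log2 fold changes of 0.19 and 0.08 (limma FDR 0.0527 and 0.148). Supt4a, 2.0 kb beyond Rnf43, had -0.17 (limma FDR 0.0669). None of the 5 tested nearest neighbours of Lgr4, Tcf7 and Rnf43 passed the threshold with a higher value in 3D. Over all tested genes 23.4% did so, and 5 genes are too few to set against that share. Tested genes that start within 500 kb of a member's start went both ways. Near Lgr4, 1 of 3 was higher in 3D and 1 lower, and near Tcf7 3 of 11 were higher and 2 lower. Near Rnf43, 3 of 12 were higher and 3 lower, and near Znrf3 4 of 17 were higher and 1 lower. Hadh, 9.1 kb from Lef1, itself near 0, rose by 1.12 (limma FDR 0.000494), and Snx20, 31.7 kb from Nkd1, rose by 0.44 (limma FDR 0.00337). Tspan8, 229.1 kb from Lgr5, rose by 0.94 (limma FDR 0.000317). On the other sides of Nkd1 and Lef1, Brd7 and Rpl34 were lower, with log2 fold changes of -0.27 and -0.24 (limma FDR 0.0271 and 0.0170). Zfc3h1 beside Lgr5, Med13l and Rbm19 beside Tbx3, Rpl9-ps7 beside Sp5, and Kremen1 and Gm11963 beside Znrf3 did not pass the threshold (limma FDR 0.0622 to 0.812). Cep112 and Rgs9 beside Axin2, Hsf5 beside Rnf43 and Gad1 beside Sp5 had means under 1 TPM.

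Markers were used to check the cell type behind these values. Of 7 hepatocyte markers 6 were tested, and 5 were higher and 1, Apoe, lower in 3D (log2 fold change -0.46). The summed level of the 7 was 93.1 and 92.6 TPM in 2D and 508 and 494 TPM in 3D. Most of it came from Hnf4a, with means of 57.1 TPM in 2D and 160 TPM in 3D, and Trf, with means of 18.8 and 229 TPM. Alb was listed at only 0.819 and 1.20 TPM in 2D and 12.7 and 10.0 TPM in 3D, while Serpina1a was at 0 in both 2D libraries. Of 5 cholangiocyte markers 3 were tested, with 1 higher and 2 lower in 3D. Spp1 rose from 152 ± 19.8 to 775 ± 15.1 TPM (SD of n = 2, log2 fold change 2.35, limma FDR 0.000317). The cholangiocyte keratin genes Krt7 and Krt19 were abundant in both cultures and lower in 3D (limma FDR 0.000578 and 0.00138), with means for Krt19 of 1687 ± 57.0 in the 2D libraries and 1200 ± 37.0 TPM in the 3D libraries (SD of n = 2), while Epcam was at 0 in 3 libraries. Among T cell markers, which bear on Tcf7 and Lef1, 6 of 7 had a mean under 1 TPM and Cd3e, the other, was lower in 3D (limma FDR 0.00555). Their summed level was 2.63 and 2.72 TPM in 2D and 2.44 and 1.70 TPM in 3D, and Cd3e made up most of it in 2D. The other 6 summed to 0.632 and 0.991 TPM in 2D and 1.94 and 1.21 TPM in 3D. Cd3g and Ptprc were higher in both 3D libraries than in both 2D libraries, and 4 overlapped. The same separation was found for 15.9% of the 17712 genes with a mean under 1 TPM, and 6 genes are too few to set against that share. None of 6 endothelial markers reached a mean of 1 TPM, with summed levels of 1.00 to 2.22 TPM, highest in 3D. Of 6 macrophage markers only Cd68 was tested, and it did not pass the threshold (limma FDR 0.0576). The summed levels of this list were 18.7 to 27.4 TPM, also highest in 3D, most of it from Cd68 at 18.3 to 25.5 TPM. Those of the stellate list were 37.1 and 40.3 TPM in 2D and 21.0 and 19.7 TPM in 3D, most of it from Des. The part of these differences in the results above was not tested.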

How the data were processed

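RNA-seq libraries of AML12 cells were prepared with a stranded mRNA kit, 2 from 2D and 2 from 3D cultures, and sequenced as paired reads. Trimming by the authors used cutadapt 1.8.3 and Trimmomatic 0.36, alignment to GRCm38 used HISAT2 2.0.5 with a strand setting, and Ensembl genes were quantified with StringTie 1.3.4. The TPM values of each library were deposited by the authors. The deposited log2 fold change and p-value columns hold the authors' own DESeq2 comparison and were not used. TPM of a library sum to a fixed total (999943 to 999962 in the table), so the read depth is unknown, and 13891 to 14256 genes reached 1 TPM per library. With a fixed total, genes that rise reduce the values of the rest.

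Here, log2(TPM + 1) of genes with a mean of at least 1 TPM was fitted with limma 3.58.1 in R 4.3.3 (eBayes, trend and robust set to true). The design held culture alone, and tests were two-sided with Benjamini-Hochberg adjustment over all 14116 genes. A gene was called at an adjusted p-value below 0.05. The filter uses the mean of all libraries, so a gene can pass it through either culture alone. Examples are Hsd17b13, Wnt3 and Frat1 through 3D and Tnfrsf19 through 2D. Fold changes on this scale understate changes of low genes, and folds given as such are ratios of mean TPM. The fit was tested on simulated data. The members, gene lists and tests were chosen with earlier results of these data known. Named genes were all 10 members, in each list the 4 highest by mean TPM and the 3 called genes with the largest fold change in each direction, and the nearest protein-coding or tested gene on each side of each member. Family relatives, markers and examples of low genes were named in addition. Positions of all 10 members were the same in GENCODE release M21. Promoter sequences came from RefSeq (GRCm38.p6).

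Alternatives were pseudocounts of 0.1 and 5, no filter, a mean of at least 5 TPM, median centring, quantile normalization, rescaling without mitochondrial and the 20 highest genes, the replicate number as a block, a constant prior variance, and each library left out. Figures were drawn with matplotlib 3.10.9.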

Additional observations from a re-analysis of the deposited data

How the results depend on the processing

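The 4 tested members kept their direction under all 13 alternatives in which each was fitted, and Rnf43 was not fitted with a mean of at least 5 TPM, where 3 members were higher. Log2 fold changes ranged from 0.86 to 1.63 for Tcf7, 0.68 to 1.50 for Rnf43, 0.57 to 0.79 for Lgr4 and 0.26 to 0.40 for Znrf3. Tcf7, Rnf43 and Lgr4 kept their call in each of these fits, and Znrf3 lost it in the 4 fits that left out a library, where 3 members were higher. No member was lower in any fit. Libraries that carry the same replicate number showed no shared deviation from their group means (correlation -0.0549 across 14116 genes), and the number was not treated as a pairing. Fitted with a replicate block, 6248 genes were called, against 7122 otherwise, and 4 members were still higher in 3D.

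Over the alternatives that kept all libraries the count of called genes was 5977 to 7147, and leaving out each library gave 4707 to 5945, lowest without 3D replicate 1. In these fits the lone library of a culture is assumed to vary like the other culture. With a mean of at least 5 TPM, 3 Wnt ligands and 0 extracellular antagonists were called, against 5 and 1, since fewer genes were tested. Leaving out a library gave 2 to 5 called Wnt ligands (3 without 3D replicate 1 and 2 without 3D replicate 2), 5 to 9 nuclear partners against 9 and 5 to 7 other Wnt targets against 8, both lowest without 3D replicate 1. Depth is unknown, so values near 0 TPM have no stated precision.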
